A study of Mus musculus with 5 samples.

Results

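The nuclear-encoded genes of oxidative phosphorylation (OXPHOS) were followed in maps of Argonaute (Ago) binding from mouse liver at 5 developmental stages. Members were taken by symbol: every gene listed in the maps whose name starts with Nduf, Uqcr, Atp5 or Cox4 to Cox8, together with Sdha, Sdhb, Sdhc, Sdhd and Cycs. This gave 91 symbols of 22714 listed, and 86 of them had at least 1 mRNA cluster, of 14348 symbols that had one. An mRNA cluster is a group of overlapping Ago-crosslinked reads listed under a coding sequence (CDS), 3′UTR or 5′UTR. Only clusters with a match to a miRNA are listed, and the positions given for a cluster span these matches, not its reads. OXPHOS takes place in the inner mitochondrial membrane, where complexes I and II accept electrons from NADH and succinate, complex III passes them to cytochrome c, and complex IV hands them to oxygen. Complexes I, III and IV pump protons, and complex V, the ATP synthase, uses the proton gradient to make ATP. Most subunits are encoded in the nucleus and imported, and hepatocytes are rich in mitochondria because gluconeogenesis, urea synthesis and fatty acid oxidation depend on them.

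Ago HITS-CLIP crosslinks Ago to RNA with ultraviolet light, pulls the protein down with antibodies, and reads the RNA fragments it held. All livers came from C57BL/6 mice (C57BL/6J in the methods), for which the labels name no allele or treatment, and were irradiated 3 times at 254 nm. The stages were the embryonic days e12.5, e15.5 and e18.5, postnatal day 7 (P7) and Adult, which the methods give as 6 to 8 weeks. Ago2 was precipitated throughout, and Ago1 antibodies were added at P7 and Adult, so antibody and birth cannot be told apart. Each stage was represented by 1 table, called a library here, without labelled replicates. No comparison between stages therefore has a replicate error or a test, and intervals given below cover counting error only. A series of 5 values without stage names runs from e12.5 to Adult in stage order. Whole liver was used, so fewer cells of a type and less RNA per cell cannot be told apart, and neither can more transcript and more Ago on each transcript.

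The sequences of abundant miRNAs with recurrent sites on OXPHOS transcripts are shown first, because the coding sites described further on are read through their seeds. The miR-27 pair is added because it had sites in more members than any other abundant miRNA. Sites of miR-122-5p, miR-126a-3p, miR-127-3p and miR-144-3p recurred too and are named without sequence. They are RefSeq mature sequences for GRCm38.p6, 5′ to 3′, with the seed (bases 2 to 8) in capitals. The let-7 pair shares 1 seed, and the miR-26 and miR-27 pairs each share their own.

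miR-16-5p: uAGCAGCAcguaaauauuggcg
miR-26a-5p: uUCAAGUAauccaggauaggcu
miR-26b-5p: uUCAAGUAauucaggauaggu
miR-27a-3p: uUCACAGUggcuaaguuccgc
miR-27b-3p: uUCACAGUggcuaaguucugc
miR-142a-3p: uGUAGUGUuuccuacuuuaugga
miR-194-5p: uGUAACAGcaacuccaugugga
miR-451a: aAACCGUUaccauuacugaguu
let-7a-5p: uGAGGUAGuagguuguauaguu
let-7c-5p: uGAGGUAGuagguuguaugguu

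The transcript sites facing these seeds are given next, each as 26 bases of the sense strand of GRCm38 (mm10), 5′ to 3′. Capitals mark the bases that pair with the seed and, where present, the adenosine opposite the first base of the miRNA. This adenosine is counted as a matched base below, so a site of 7 bases may pair with only 6 of the seed. The Cox8a site lies at chr19:7217487-7217493 in exon 1 of 2, the Sdha site at chr13:74339698-74339704 in exon 4 of 15, and the Sdhc site at chr1:171136123-171136129 in exon 5 of 6. The Sdhd site lies at chr9:50598819-50598825 in exon 3 of 4, the Atp5d site at chr10:80143916-80143922 in exon 2 of 4, and the Atp5j site at chr16:84831410-84831416 in exon 3 of 5. The Cox5a site lies at chr9:57530313-57530319 in exon 3 of 5, and the Ndufb7 site at chr8:83570900-83570906 in exon 2 of 3. All of these are coding, and the Atp5g1 site, at chr11:96073070-96073076 in exon 5 of 5, is in the 3′UTR. The genes on the plus strand are Atp5d, Cox5a and Ndufb7, and the others are on the minus strand.

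Cox8a, miR-16-5p: ctgtcctgacgccacTGCTGCTgagg
Sdha, miR-16-5p: ccagggaggtatcaaTGCTGCTctgg
Sdhc, miR-16-5p: ttggcctgtcggcacTGCTGCTtcct
Atp5g1, miR-16-5p: tcacccagccgtcccTGCTGCTttga
Sdhd, miR-26a-5p and miR-26b-5p: ctgatccctgctgggTACTTGAAtcc
Atp5d, miR-142a-3p: gcatcccatgtccccACACTACAggt
Cox5a, miR-451a: cattgcgagcatgtagACGGTTAaat
Atp5j, miR-194-5p: tgaagaggaacattggTGTTACAgct
Ndufb7, let-7a-5p and let-7c-5p: tgactactgtgcccaCTACCTCAtcc

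OXPHOS transcripts were bound by Ago at every stage. Of the 86 genes with an mRNA cluster, 83, 76, 66, 80 and 80 had one in the successive libraries. Of these, 60 (69.8%) had one in all 5 libraries, against 45.5% of all genes with an mRNA cluster. At e12.5 they accounted for 512 of 95118 mRNA clusters (0.538%, Wilson 95% interval 0.494 to 0.587). The e15.5 library had 287 of 45083 (0.637%, 0.567 to 0.714) and the e18.5 library 232 of 42466 (0.546%, 0.480 to 0.621). After birth they were 392 of 80134 at P7 (0.489%, 0.443 to 0.540) and 371 of 53533 in Adult (0.693%, 0.626 to 0.767). The Adult share was the highest of the libraries, and its interval lay above those of e18.5 and P7. It also lay above that of e12.5, but not with the first e12.5 list alone, whose share was 0.672% (0.579 to 0.779). The gap to the e18.5 interval was narrow, and the e18.5 share was not taken for either of its lists alone. Seed matches to 694, 453, 418, 633 and 507 miRNAs were listed in these clusters from e12.5 to Adult. Over all mRNA clusters the numbers were 745, 589, 644, 743 and 585.

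Reads are the highest number listed for a cluster, of which the lowest is 5, and clusters without a seed match are not listed. A gene that is not listed may therefore still have been bound. Reads were scaled to 1000000 summed cluster reads of the library (RPM). OXPHOS clusters held 50860, 23107, 16140, 15333 and 18815 reads. On the RPM scale this was 1134, 1399, 1241, 929 and 756, so the 3 embryonic libraries were above both postnatal ones. This order is not firm for e18.5 and P7: with the second list of the e18.5 table alone the log2 ratio of P7 over e18.5 was 0.46, and with clusters holding a site of at least 7 bases it was -0.0144. Of all cluster reads, clusters on miRNA genes and other regions included, the mRNA clusters held 23.3%, 29.7%, 30.03%, 20.5% and 13.5%. As a share of mRNA cluster reads alone, OXPHOS transcripts held 0.487%, 0.472%, 0.413%, 0.454% and 0.561%. The direction between Adult and e12.5 thus turned with the scaling, from a log2 ratio of -0.58 in RPM to 0.21 among mRNA reads. Between P7 and e18.5 the log2 ratio was likewise -0.42 in RPM and 0.14 among mRNA reads. The embryonic tables hold 2 lists each, which were added up. The lists differed by over 2-fold, or listed the gene in 1 list only, for 16 of 32 named genes at e12.5, 23 of 30 at e15.5 and 20 of 29 at e18.5.

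Markers of the cell types of the liver differed widely between the libraries. Transcripts of 6 erythroid markers, which stem from the blood-forming cells of the fetal liver, summed to 36243, 52151, 51199, 18263 and 883 RPM. The 6 hepatocyte markers summed to 620, 1998, 4601, 5381 and 7917 RPM, and all 6 were at least 2-fold higher in Adult than at e12.5. The 4 erythroid markers listed in both of these libraries were at least 2-fold lower in Adult. Summed levels were 7.64, 57.4, 216, 68.7 and 92.4 RPM for 4 macrophage markers, 10.9, 29.5, 45.05, 178 and 140 RPM for 3 endothelial markers, and 30.9, 25.8, 53.3, 125 and 20.9 RPM for 3 stellate and mesenchymal markers. The erythroid and hepatocyte lists thus differed far more between libraries than the OXPHOS total, and the part of these cell types in the OXPHOS values was not tested.

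Ago clusters on OXPHOS transcripts lay mainly in the coding sequence. At e12.5, 418 of the 512 clusters were listed under the CDS, or 81.6% (78.1 to 84.8), against 61.3% of all mRNA clusters. In the later libraries, in stage order, the CDS share was 80.5% (75.5 to 84.7), 82.8% (77.4 to 87.1), 84.2% (80.2 to 87.5) and 86.5% (82.7 to 89.6), where the share over all genes was 62.8%, 63.4%, 65.5% and 72.9%. In every library the interval of the members lay above the share of all genes. The 3′UTR share was correspondingly lower, from 26.5% at e15.5 to 18.9% in Adult, against 40.4% and 29.7% over all genes. The 5′UTR share was 9.57%, 10.5%, 12.1%, 10.2% and 10.2%, against 4.70% to 5.89% over all genes. Clusters with more than 1 region entered each of them.

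**Figure D1:**
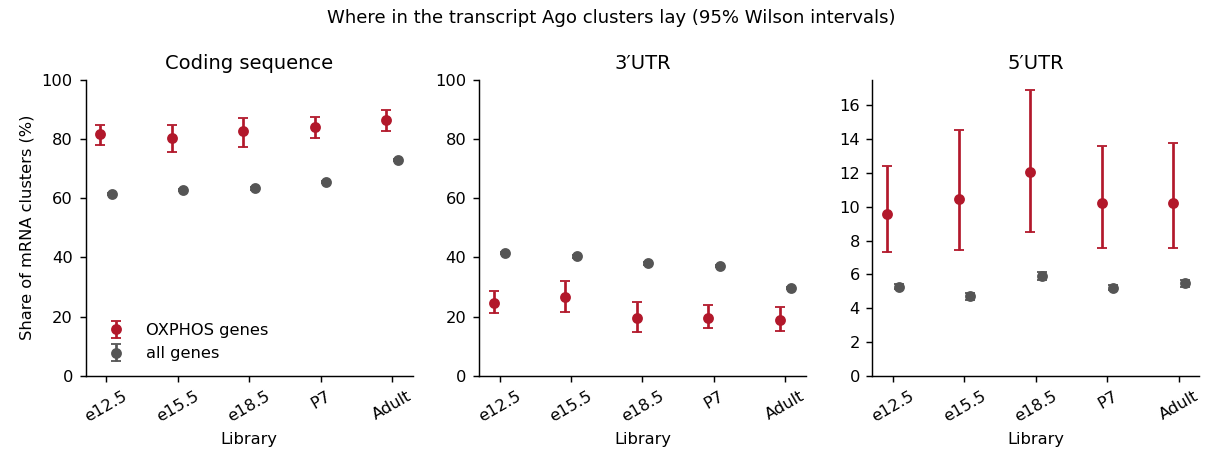
Share of mRNA clusters (y axes, %) listed under the coding sequence, 3′UTR and 5′UTR in each library (x axes), for OXPHOS genes (red) and all genes (grey), with Wilson 95% intervals as bars. OXPHOS points lie above all genes in the coding and 5′UTR panels and below them in the 3′UTR panel in all 5 libraries, for example 86.5% against 72.9% coding in Adult.

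OXPHOS subunits are small proteins with short mRNAs. In the GENCODE vM21 annotation the 85 members with a length had a median CDS of 441 nt and a median 3′UTR of 200 nt, against 1428 and 1188.5 nt over 13502 genes. A length here joins the stretches of all annotated coding transcripts of a gene, so it can exceed that of a single mRNA. Length was taken into account by counting clusters per kilobase of each region. The members had 8.17 CDS clusters per kb at e12.5 and then 4.51, 3.75, 6.43 and 6.25 in stage order, and all genes had 2.21, 1.07, 1.02, 1.995 and 1.49. In the 3′UTR the members had 2.69, 1.62, 0.961, 1.64 and 1.495 clusters per kb, and all genes had 1.61, 0.743, 0.662, 1.21 and 0.653. Clusters were denser on OXPHOS transcripts in both regions, and the gap was wider in the CDS. The level of each mRNA was not measured here, so density per transcript is not known.

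The reads were concentrated on a few subunits. The 10 members with most reads held 49.0% of all OXPHOS reads at e12.5 and then 49.7%, 59.5%, 59.7% and 57.5% in stage order. The ATP synthase beta and alpha subunits Atp5b and Atp5a1 and the succinate dehydrogenase subunits Sdha and Sdhc were among these 10 in every library. Values per kilobase of joined length were averaged over the libraries. Atp5b led with 65.4 RPM per kb, followed by Atp5g3 with 58.3, Cox8a with 48.8 and Cox5a with 42.9. The order differed between libraries, with Cox5a first at e12.5, Cox4i1 at e15.5, Atp5b at e18.5 and P7, and Atp5g3 in Adult.

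**Figure D2:**
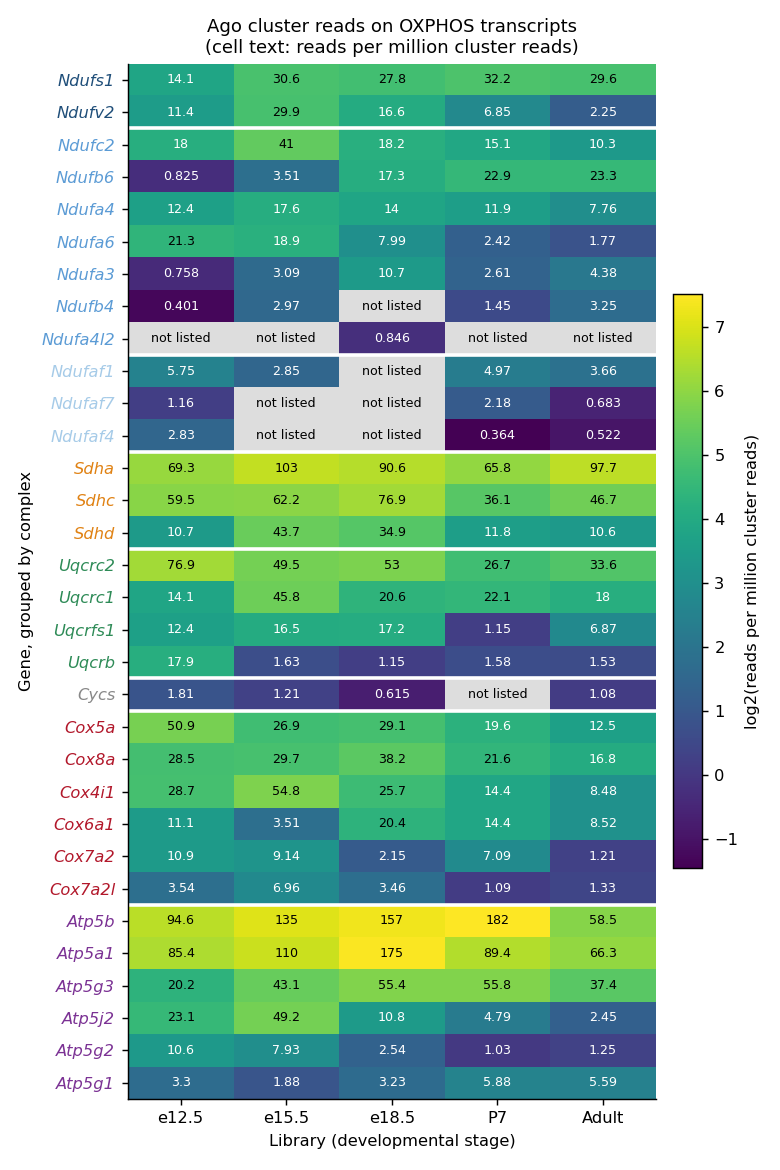
Cluster reads in RPM (cell text, colour on a log2 scale) of 32 OXPHOS genes (y axis, grouped by complex) in the 5 libraries (x axis), with grey cells where a gene was not listed. Atp5b, Atp5a1 and Sdha are high in every library, while Ndufb6 is higher and Uqcrb, Ndufa6 and Atp5j2 are lower in Adult than at e12.5.

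Complex I takes electrons from NADH through 7 nuclear core subunits, which carry the flavin and iron-sulphur centres, surrounded by accessory subunits. Ndufs1, the largest core subunit, had 14.1, 30.6, 27.8, 32.2 and 29.6 RPM. Ndufv2, which holds an iron-sulphur centre of the NADH module, had 11.4, 29.9, 16.6, 6.85 and 2.25 RPM. In the summed lists Ndufs1 was lowest at e12.5 and Ndufv2 was lowest in Adult. On Ndufs1, clusters at chr1:63151577-63151685 in exon 14 of 19, listed as CDS and 5′UTR, held 29.97%, 53.8%, 33.5%, 55.8% and 35.5% of the gene's mRNA reads, a large share in every library.

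Among the accessory subunits of complex I, Ndufb6 differed most between the ends of the series. It had 0.825, 3.51, 17.3, 22.9 and 23.3 RPM, on 37, 58, 225, 378 and 579 reads. The lists of the embryonic tables disagreed on it, with 21.1 RPM in the first and 2.59 in the second at e18.5, and all earlier reads came from the second. Clusters in exon 3 of 4 (chr4:40272818-40272853) were not listed at e12.5 or e15.5 and from e18.5 on held 46.2%, 84.7% and 73.4% of its reads. Clusters in exon 1 (chr4:40279265-40279277) were listed in all 5 libraries with 37, 28, 83, 20 and 88 reads. Most of the reads at P7 and in Adult thus lay in a single exon, while at e18.5 exon 1 held 36.9%.

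Ndufc2, an accessory subunit of the membrane arm, had 18.0, 41.0, 18.2, 15.1 and 10.3 RPM. Its clusters in exon 2 of 3 (chr7:97406931-97406961), in which sites of miR-27a-3p and miR-27b-3p were listed, held 47.5%, 64.1%, 81.1% and 65.8% of its reads at e12.5, e18.5, P7 and Adult, and all of them at e15.5. Ndufa4, counted with complex I here by its name but found with complex IV in purified preparations, had 12.4, 17.6, 14.0, 11.9 and 7.76 RPM. Its relative Ndufa4l2, which is induced by low oxygen in other settings, was listed only at e18.5, with 11 reads. Ndufa6 had 21.3, 18.9, 7.99, 2.42 and 1.77 RPM. The first lists alone gave 9.39 RPM at e12.5 and 30.02 at e15.5, so the order of that pair turned with the list. Per 1000000 mRNA cluster reads the P7 and Adult values were 11.8 and 13.1, so on that scale P7 was lowest. Ndufa3 had 0.758, 3.09, 10.7, 2.61 and 4.38 RPM, highest at e18.5, where all 139 reads came from the first list. Ndufb4 had 0.401 and 2.97 RPM in the first pair of libraries, was not listed at e18.5, and had 1.45 and 3.25 RPM after birth.

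Assembly factors of complex I build the enzyme without remaining in it, and together they held at most 1.13% of the OXPHOS reads of a library. Ndufaf1 had 5.75 RPM at e12.5, 2.85 at e15.5, 4.97 at P7 and 3.66 in Adult. Ndufaf7 had 1.16, 2.18 and 0.683 RPM at e12.5, P7 and Adult, and Ndufaf4 had 2.83, 0.364 and 0.522 RPM. No assembly factor had an mRNA cluster at e18.5, and Ndufaf2 had none in any library. The value of Ndufaf4 at P7 rests on 6 reads, next to the listing limit of 5.

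Complex II oxidises succinate to fumarate and belongs to both the citric acid cycle and the respiratory chain. All 4 of its genes had mRNA clusters in every library. The flavoprotein gene Sdha had 69.3, 103, 90.6, 65.8 and 97.7 RPM. It was the OXPHOS gene with most reads in Adult, with 2432 reads in 26 clusters. Scaled to mRNA reads it was 2-fold or more higher in Adult than at e12.5, at a log2 ratio of 1.29, and in RPM the ratio was 0.50.

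The membrane anchors of complex II differed in where Ago was bound. Sdhc had 59.5, 62.2, 76.9, 36.1 and 46.7 RPM. A region of its exon 2 of 6 listed as 5′UTR and CDS (chr1:171145779-171145806) held 14.1%, 17.6%, 55.4%, 79.5% and 86.0% of its reads. Clusters in its 3′UTR at chr1:171129178-171129197 held 20.5%, 33.5% and 12.9% in the 3 embryonic libraries and were not listed at P7 or in Adult. The bulk of the Sdhc reads therefore lay towards the other end of the transcript in the later libraries. Sdhd had 10.7, 43.7, 34.9, 11.8 and 10.6 RPM, with the highest values at e15.5 and e18.5. The e15.5 level was 121 RPM in the first list of that table and 15.47 RPM in the second, so the peak rests on the first. Complex II held 13.1%, 15.4%, 16.7%, 12.9% and 20.9% of the OXPHOS reads from e12.5 to Adult. At e15.5 this share was 25.0% in one list of the table and 11.3% in the other, a gap wider than the range over the 5 libraries.

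Complex III carries electrons from ubiquinol to cytochrome c. Uqcrc2, a core protein without a redox centre, had 76.9, 49.5, 53.0, 26.7 and 33.6 RPM. In the embryonic libraries most of it came from a stretch of exon 5 of 14 (chr7:120641685-120641731), with 77.0%, 85.4% and 92.2% of the gene's reads, on 2658, 698 and 635 reads. The lists of the e15.5 table disagreed on this gene, with 1.35 RPM in one and 67.1 in the other. The same stretch held 91 reads at P7 (20.6%) and 73 in Adult (8.74%). Its partner core protein Uqcrc1 had 14.1, 45.8, 20.6, 22.1 and 18.0 RPM, where the e15.5 value joins 136 RPM in the first list and 12.8 in the second. The Rieske iron-sulphur protein gene Uqcrfs1 had 12.4, 16.5, 17.2, 1.15 and 6.87 RPM, lowest at P7 with 19 reads. Uqcrb, a small subunit that binds near ubiquinone, had 17.9 RPM at e12.5 and between 1.15 and 1.63 RPM in the other libraries. Cytochrome c itself, encoded by Cycs, had at most 1.81 RPM and was not listed at P7.

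Complex IV reduces oxygen to water. Its share of the OXPHOS reads was 16.1%, 13.9%, 11.2%, 10.4% and 9.68%. The lists moved it. The first gave 7.50% at e15.5 against 16.6% in the second, while the e18.5 lists gave 11.7% and 7.52%. No member of complex IV was 2-fold or more higher in Adult than at e12.5 in RPM, and 5 of 11 were lower: Cox4i1, Cox5a, Cox6b1, Cox7a2 and Cox7a2l. Over all genes in both libraries, 21.4% were higher and 47.4% lower in RPM. Among mRNA reads 1 (Cox7b) was higher and 2 (Cox5a and Cox7a2) were lower, against 31.5% and 32.8% of all genes. Cox5a, a matrix-facing subunit, had 50.9, 26.9, 29.1, 19.6 and 12.497 RPM.

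The place of Ago on Cox5a differed between embryonic and postnatal libraries. Clusters in exon 2 of 5 (chr9:57528968-57529026) held 56.1%, 30.6% and 69.3% of its reads at e12.5, e15.5 and e18.5 and were not listed later. Clusters in exon 3 (chr9:57530292-57530319) held 27.6%, 42.8% and 29.4% in the embryo, 7.41% at P7 and none of the listed reads in Adult. Clusters in exon 4 (chr9:57531732-57531773) held 1.84%, 4.50% and no listed reads in the embryo, then 59.9% at P7 and 54.3% in Adult. All 3 places are coding, so the difference lay within the CDS.

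Several complex IV subunits exist as a liver-type or ubiquitous form and a form of more limited tissues. The ubiquitous forms were listed in all libraries: Cox4i1 with 28.7, 54.8, 25.7, 14.4 and 8.48 RPM, and Cox8a with 28.5, 29.7, 38.2, 21.6 and 16.8 RPM. Cox6a1 had 11.1, 3.51, 20.4, 14.4 and 8.52 RPM, and Cox7a2 had 10.9, 9.14, 2.15, 7.09 and 1.21 RPM. The related Cox7a2l, which takes part in joining complexes into supercomplexes, had 3.54, 6.96, 3.46, 1.09 and 1.33 RPM. The partners Cox4i2, Cox6a2, Cox7a1 and Cox8b were not listed at any stage. Cox6b2, the testis form of Cox6b, was listed at e12.5 (31 reads) and e15.5 (23 reads) alone.

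Complex V makes ATP and took the largest part of the OXPHOS reads, with 34.4%, 35.0%, 38.7%, 42.2% and 30.4%. Genes were grouped under it by symbol, which takes in Atp5s and Atp5sl, named Dmac2l and Dmac2 in RefSeq. Atp5b, the catalytic beta subunit, had 94.6, 135, 157, 182 and 58.5 RPM. Atp5a1, the alpha subunit, had 85.4, 110, 175, 89.4 and 66.3 RPM. In the summed lists Atp5b was highest at P7 and Atp5a1 at e18.5. The lists disagreed on Atp5b at e15.5, with 244 RPM in the first, above the P7 value, and 95.1 in the second. They also disagreed on Atp5a1 at e18.5, with 198 RPM in the first and 85.2 in the second. At P7 a stretch of exon 9 of 10 of Atp5b (chr10:128088966-128089038) held 66.8% of its reads, on 2003 reads, and it held between 20.7% and 31.4% in the other libraries.

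The membrane ring of complex V is built from a subunit that is encoded by Atp5g1, Atp5g2 and Atp5g3, whose mature proteins are the same. Atp5g3 had 20.2, 43.1, 55.4, 55.8 and 37.4 RPM. Atp5g2 had 10.6, 7.93, 2.54, 1.03 and 1.25 RPM, and Atp5g1 had 3.30, 1.88, 3.23, 5.88 and 5.59 RPM. In the summed lists Atp5g3 had most reads of the trio in every library, Atp5g2 exceeded Atp5g1 at e12.5 and e15.5, and Atp5g1 exceeded Atp5g2 at P7 and in Adult. At e18.5 Atp5g1 had 42 reads, all from the first list of that table, and Atp5g2 had 33, so their order there differed between the lists. At e15.5 all 712 reads of Atp5g3 came from the second list, and Atp5g2 had 23 reads in the first. Per kilobase of joined length, averaged over libraries, Atp5g3 had 58.3, Atp5g2 6.36 and Atp5g1 0.808 RPM per kb. That length was 727, 734 and 4915 nt, and the mean RPM of Atp5g2 and Atp5g1 was 4.67 and 3.97. The gap between the last pair thus lay mainly in the length. On Atp5g3 the 3′UTR clusters at chr2:73908497-73908586 held 68.7%, 59.8%, 50.2% and 61.6% of its reads up to P7 and 19.2% in Adult. Atp5j2, a subunit of the membrane part, had 23.1, 49.2, 10.8, 4.79 and 2.45 RPM.

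**Figure D3:**
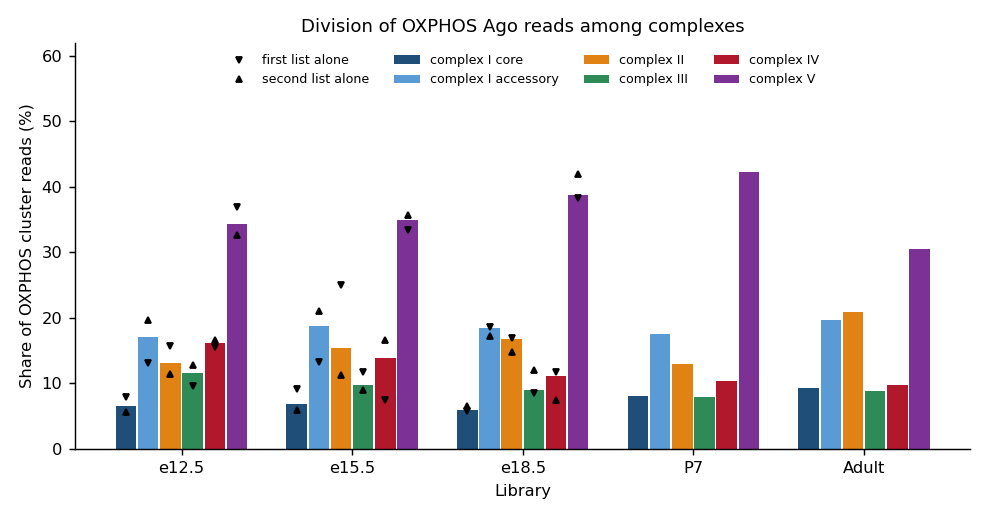
Share of OXPHOS cluster reads (y axis, %) held by each complex in the 5 libraries (x axis), as bars from 0, with triangles for either list of the embryonic tables taken alone. Complex V is highest everywhere, with 42.2% at P7 and 30.4% in Adult, and the triangles show that the lists of e15.5 differ most for complex II.

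Adult was set against e12.5 gene by gene as the widest interval of the series. Of 79 members listed in both libraries, 8 were at least 2-fold higher in Adult in RPM and 30 were at least 2-fold lower, or 10.1% and 38.0%. Over all 8865 genes listed in both, 21.4% were higher and 47.4% lower. With the first e12.5 list alone, 3 of 59 members were higher and 34 lower. The median log2 ratio was -0.69 for the members and -0.86 for all genes. Among mRNA reads, which shift every ratio by 0.79, 19 members (24.1%) were higher and 19 lower, against 31.5% and 32.8% of all genes. No test was made, since each stage is 1 library.

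The 8 genes with higher RPM in Adult were the complex I genes Ndufa3, Ndufa9, Ndufb4, Ndufb6, Ndufb7, Ndufs1 and Ndufs8, and Uqcr10 of complex III. Thus 7 of the 8 are grouped with complex I subunits by symbol, as are 36 of the 79 genes compared and 13 of the 30 lower ones. Ndufa4 is among the 36. The 3 largest differences were those of Ndufb6 at 4.82, Ndufb4 at 3.02 and Ndufa3 at 2.53 on the log2 scale. The 3 largest in the other direction were those of Ndufa6 at -3.59, Uqcrb at -3.55 and Atp5j2 at -3.24. The e12.5 level behind several of these rests on 1 of the lists of that table. Ndufb6, Ndufb4 and Ndufa3 were listed at e12.5 in the second list only, and Atp5j2 had 3.44 RPM in the first list against 32.8 in the second. Ndufa6 had 9.39 and 27.2 RPM and Uqcrb 30.3 and 11.7 RPM in the first and second list, all above their Adult levels of 1.77 and 1.53 RPM. Complex I accessory subunits were on both sides, with 5 higher and 11 lower of 29 in RPM, and 10 higher and 6 lower among mRNA reads. Over all genes 21.4% were higher and 47.4% lower in RPM, and 31.5% and 32.8% among mRNA reads. Of the genes grouped with the ATP synthase by symbol, 7 of 14 were lower in RPM and none was higher. The lower share was close to the 47.4% of all genes, and the 7 include Atp5s, which RefSeq names Dmac2l. Among mRNA reads 6 were lower and 3 (Atp5g1, Atp5g3 and Atp5h) were higher.

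**Figure D4:**
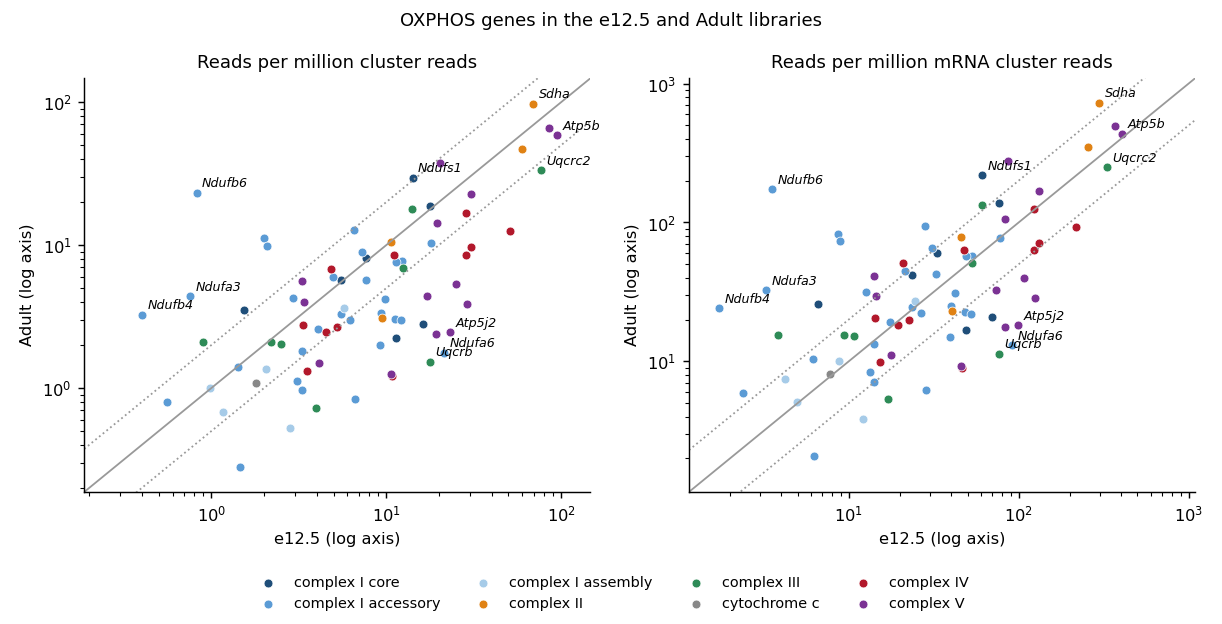
Reads of 79 OXPHOS genes in the Adult library (y axes) against the e12.5 library (x axes) on log axes, in RPM (left) and scaled to mRNA cluster reads (right), coloured by complex. The solid line marks equal values and the dotted lines a 2-fold difference, and on the left 8 genes lie above and 30 below the dotted lines, against 19 and 19 on the right.

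P7 was set against e18.5 as the pair of libraries on either side of birth. Of 63 members in both, 7 were at least 2-fold higher at P7 and 25 lower in RPM, or 11.1% and 39.7%, against 20.9% and 35.1% of 9204 genes. Among mRNA reads 12 were higher and 14 lower, or 19.05% and 22.2%, against 29.3% and 23.0% of all genes. The share of lower members was thus near that of all genes on both scales. The Ago1 antibodies were added from P7 on, as stated above.

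Sites of at least 7 matched bases, the adenosine opposite the first base included, were counted for the 20 most abundant miRNAs of a library. Clusters holding such a site made up a lower share of the members' clusters than of all clusters, which was not tested. In the CDS, 8.37% of the members' clusters held one at e12.5 (6.08 to 11.4), against 10.1% of all CDS clusters, and 9.66% in Adult (6.89 to 13.4), against 13.5%. In the 3′UTR it was 11 of 126 clusters, 3 of 76, 1 of 45, 5 of 77 and 7 of 70 in stage order. The share of all 3′UTR clusters was 10.8%, 12.8%, 13.3%, 13.1% and 16.4%. The members were lower in all 10 pairs of library and region, and in 3 of these the share of all genes lay above the interval of the members.

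Taken over the libraries, miR-27a-3p and miR-27b-3p had such sites in more members than any other abundant miRNA, with 10 genes each (11.6% of 86, against 17.2% and 17.3% of all genes). They were followed by miR-16-5p with 9 genes (10.5% against 23.5%), by miR-29a-3p and miR-30a-3p with 8 each (9.30% against 10.3% and 10.4%) and by the hepatocyte miRNA miR-122-5p with 7 (8.14% against 11.3%). With 6 genes each came let-7a-5p, let-7b-5p, let-7c-5p and let-7f-5p, as well as miR-26a-5p, miR-127-3p and miR-144-3p (6.98%). For miR-127-3p, from an imprinted cluster, the share of all genes was 3.39%, and for the other 6 of these it lay between 8.27% and 10.9%. The members are shorter than most genes, and the shares were not adjusted for length.

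Sites of this kind were found at 63 coding and 16 3′UTR positions, counting each gene, position and region once over the libraries. Of these, 17 positions were listed for such a miRNA in at least 3 libraries, 15 in the CDS alone, and 8 in all 5. The 3′UTR ones had been singled out by rule, and the coding ones were chosen by the same criteria after their values had been seen. Reads below are those of the clusters holding the site, and abundance is the share of a miRNA among all miRNA numbers of the library. That these numbers are read counts is an assumption, which no source used here states. Reads listed at the site can be fewer than those of its cluster, and this is said where they part by over 2-fold. A site and a cluster in the same place do not show which miRNA had guided Ago there.

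The Atp5d site of miR-142a-3p pairs with the whole seed and is followed by an adenosine. Atp5d encodes the delta subunit of the ATP synthase stalk, and miR-142a-3p is a miRNA of blood cells. Its cluster had 632, 406, 110 and 57 reads up to P7, and the site was not listed in Adult. This cluster held 72.8%, 95.5%, 53.1% and 40.4% of the gene's reads in these 4 libraries, but at e18.5 the site itself was listed with 16 reads against 110 for the cluster. The share of miR-142a-3p was 32.2%, 37.1%, 23.9%, 8.88% and 4.34% from e12.5 to Adult, so both shares were highest at e15.5.

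On Cox5a, the site of miR-451a, an erythroid miRNA, was listed in the 3 embryonic libraries, with 630, 190 and 111 reads. The abundance of miR-451a was 6.98%, 3.53%, 2.66%, 0.299% and 0.722% from e12.5 to Adult. At chr9:57531748-57531754 in exon 4 a site of miR-122-5p was listed at e12.5 with 42 reads, at P7 with 194 and in Adult with 169. The abundance of miR-122-5p was 1.44%, 4.33%, 9.20%, 12.3% and 11.2%. The seed match of the erythroid miRNA thus lay under 27.6% to 42.8% of the gene's reads in the embryo, and that of the hepatocyte miRNA under 59.9% and 54.3% after birth. The exon 2 clusters, which held 30.6% to 69.3% in the embryo, lay over neither of these sites. A site of miR-16-5p was listed there, and this miRNA was most abundant in Adult (14.0%), where those clusters were not listed. At e18.5 the miR-122-5p site was not listed although the miRNA was at 9.20%.

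Other sites of miR-122-5p recurred as well. On Ndufa12, an accessory subunit of complex I, the site at chr10:94220779-94220785 in exon 4 of 4 was listed under both CDS and 3′UTR in all 5 libraries, with 19, 23, 6, 24 and 106 reads. It held 14.4%, 57.5%, 28.6% and 46.2% of the gene's reads up to P7 and all of them in Adult. The Atp5a1 clusters with such a site had 440, 57, 905, 450 and 444 reads, highest at e18.5. On Ndufs1 the site at chr1:63151660-63151666 had 42, 235, 16, 282 and 262 reads, and on Uqcrc1 the site at chr9:108947025-108947031 had 159 at e12.5, 157 at e15.5 and 134 in Adult.

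Complex II carried sites of miR-16-5p and of the miR-26 family. The Sdha cluster with the miR-16-5p site had 430, 178, 110, 261 and 909 reads from e12.5 to Adult, or 9.58, 10.8, 8.46, 15.8 and 36.5 RPM. At the site itself, however, 11 reads were listed at P7 and 199 in Adult, below the number of the cluster. The abundance of miR-16-5p was 14.0% in Adult and 3.18% to 9.30% in the other libraries. The Sdhc site of the same miRNA had 88, 72, 10 and 49 reads up to P7 and was not listed in Adult, so sites of 1 seed did not follow each other. The Sdhd site, which pairs with the whole seed of miR-26a-5p and miR-26b-5p and is followed by an adenosine, had 39, 64, 16, 57 and 134 reads and held 8.14%, 8.86%, 3.52%, 29.2% and 51.0% of the gene's reads. The abundance of miR-26a-5p was 1.04%, 1.43%, 1.77%, 2.32% and 3.79%.

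The Cox8a site of miR-16-5p lies at base 20 of a coding length of 207 bases. Its cluster had 697, 172, 237, 202 and 254 reads, or 15.53, 10.4, 18.2, 12.2 and 10.2 RPM, and held 54.5%, 35.0%, 47.7%, 56.6% and 60.8% of the gene's reads. At e15.5 all mRNA reads of the gene came from the second list, and at e18.5 it had 45.4 RPM in the first list and 10.7 in the second. The only recurrent site listed under the 3′UTR alone was that of miR-16-5p on Atp5g1, with 17 and 31 reads in the first pair of libraries, 8 at P7 and 73 in Adult, and not listed at e18.5. On Atp5j, which encodes a coupling subunit of the ATP synthase, the cluster with the miR-194-5p site had 717, 196, 15, 32 and 63 reads. The abundance of miR-194-5p was 0.652%, 1.68%, 2.46%, 9.29% and 10.01%, so here the cluster was largest where the miRNA was scarcest. The Ndufb7 site of the let-7 family, also not listed at e18.5, had 33 and 101 reads before it, then 22 at P7 and 143 in Adult. The remaining recurrent sites were those of miR-126a-3p on Ndufa2, miR-127-3p on Atp5g3 and miR-144-3p on Sdha. The Ndufa2 clusters had 104, 13, 118, 44 and 24 reads. Those on Atp5g3 had 46, 79, 120, 33 and 26, with 22 at the site at e15.5. The Sdha site was listed with 39, 38 and 38 reads at e12.5, P7 and Adult, where miR-144-3p was at 21.7%, 1.97% and 1.54%. It was not listed at e15.5 or e18.5, where that miRNA was at 10.2% and 9.58%.

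**Figure D5:**
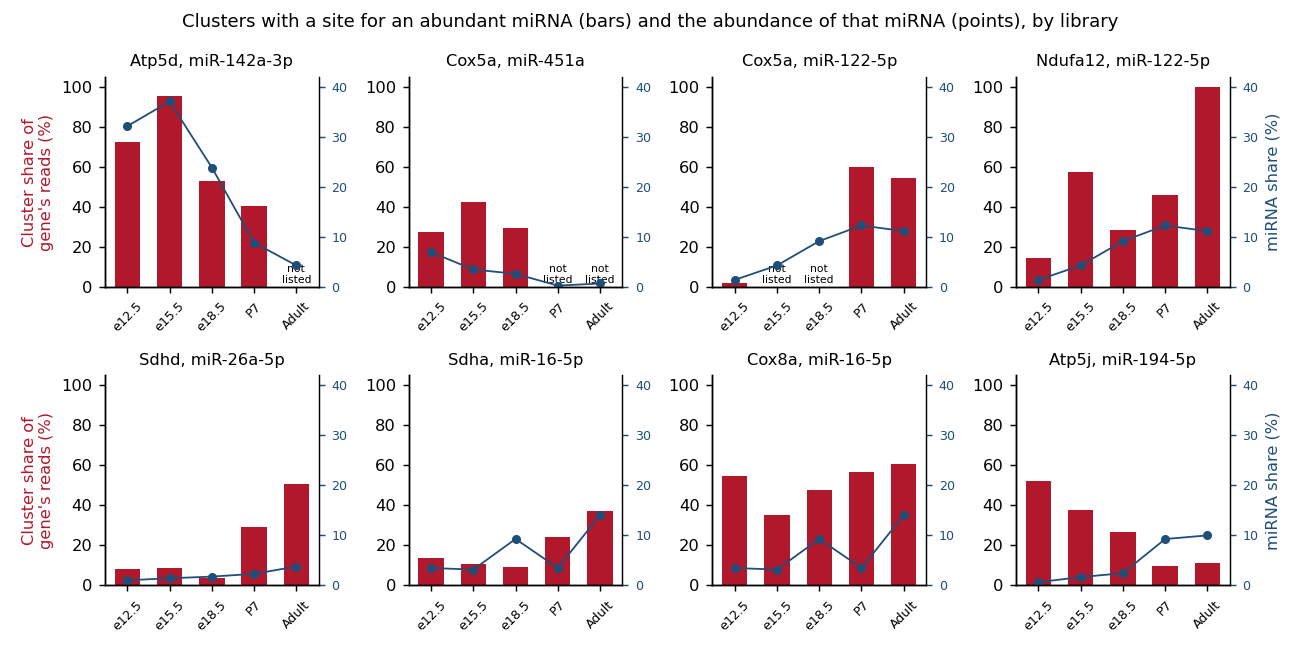
Share of a gene's mRNA cluster reads held by the cluster with the site (red bars, left axes, %) and share of the miRNA among all miRNA numbers (blue points, right axes, %) in the 5 libraries for 8 pairs of gene and miRNA, with the site marked where it was not listed. Bars count the whole cluster, and the site itself was listed with fewer reads for Sdha at P7 and in Adult and for Atp5d at e18.5. Bars and points are both highest at e15.5 for Atp5d with miR-142a-3p, both higher after birth for Cox5a with miR-122-5p, and opposed for Atp5j with miR-194-5p.

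Genes that serve the pathway without matching the symbol rule were counted from a list of 45, chosen with earlier results known and holding assembly factors of complexes I to V, a few subunits under other names (Cyc1 of complex III, Usmg5 of complex V), carriers and regulators of mitochondrial genes. Of these, 43 had an mRNA cluster in some library and 32 in both e12.5 and Adult. In RPM 3 of the 32 were at least 2-fold higher and 18 lower in Adult, with a median log2 ratio of -1.13. The shares over all genes were 21.4% and 47.4%, as above. Its summed reads were 392, 460, 302, 198 and 147 RPM. Among mRNA reads 7 were higher and 9 lower, against 31.5% and 32.8% of all genes, with a median log2 ratio of -0.34. The sums per 1000000 mRNA cluster reads were 1683, 1550, 1007, 965 and 1091. The Adult sum was thus the lowest in RPM and above that of P7 among mRNA reads.

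Of the 91 symbols, Atp5l-ps1, Atp5l-ps2, Atp5l2-ps, Cox7b2 and Ndufaf2 had no mRNA cluster and were listed in non-coding exons or introns only. All 91 matched a RefSeq gene, and 11 of the 97 RefSeq protein-coding genes that meet the rule were not listed under that symbol. Of these, 4 were listed under an older symbol, which the rule does not take: Atp5md as Usmg5, Atp5mpl as 2010107E04Rik, Ndufaf8 as 1810043H04Rik and Ndufb4c as Gm3244. The other 7, Cox4i2, Cox6a2, Cox7a1, Cox8b, Cox8c, Ndufb1 and Ndufb4b, were listed under neither. Some OXPHOS genes have processed pseudogenes, and how reads were divided among near-identical copies is not given in the sources used here. Clusters that also named a gene outside the set numbered 20, 12, 15, 12 and 7, mostly through an intron of that gene. Those that named it under the mRNA too numbered 3, 2 and 1 in the embryonic libraries, with none later.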

How the data were processed

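Each stage had 1 table of miRNA-target interactions. The authors trimmed reads with the FASTX-Toolkit and aligned them by Bowtie against mm10 and the miRNA precursors of miRBase v19 (aligner version not given in the sources used here). They joined overlapping reads into clusters, annotated from UCSC refGene and Ensembl, in which seed matches were then sought. Reads per cluster, as deposited, are a signal of unscaled whole numbers with a lowest value of 5. The e12.5 column carries another name than its counterpart in the other tables, and both were taken as 1 measure. The deposited conservation and free energy values are scores and give no result here. Identical molecules cannot be recognised. The methods name 2 biological replicates, and the labels give 1 sample per stage.

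Members and lists were chosen with earlier results of these data known. A cluster took the highest number among its sites. Embryonic tables hold 2 lists each, which were added up, and clusters in them whose spans of seed matches overlapped were counted once. The lists were not treated as replicates. Summed cluster reads were 44867326, 16519549, 13008703, 16499162 and 24885228 from e12.5 to Adult. For miRNA abundance, the number within an interaction name was taken as that miRNA's reads, which no source used here states. Named genes were the 3 with the highest mean RPM of each role, the 3 largest differences between e12.5 and Adult in either direction, and tissue isoforms. A gene that this rule names is not reported here. Named sites had at least 7 matched bases for 1 of the 20 most abundant miRNAs of a library in at least 3 libraries, and named miRNAs were the 10 with most member genes, with ties. The stretches and exons described within genes, and Ndufa12, Ndufb7, Atp5d, Atp5j and the other genes outside this rule, were chosen after their values were seen. Site sequences were read from GRCm38, which held the last bases of 6280 of 6280 listed member sites. A count of genes is given at a 2-fold difference, with no test. Alternatives were a minimum of 10 reads, either embryonic list, sites of at least 7 bases, clusters naming 1 gene, other scalings and fewer members. Counting and folds were tested on simulated data. Python 3.11.15, pandas 2.3.3, NumPy 2.4.6, SciPy 1.17.1, pysam 0.24.0 and matplotlib 3.10.9 were used.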

Additional observations from a re-analysis of the deposited data

Results flagged for a closer look

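Clusters of OXPHOS genes listed in introns and in no mRNA region of any gene lay outside every comparison above. In stage order from e12.5 to Adult there were 58, 14, 10, 24 and 31 of them, with 2792, 1006, 715, 529 and 568 reads. They were 0.126% of all such clusters at e12.5 (0.0973 to 0.163) and 0.252% in Adult (0.177 to 0.357), below the members' share of mRNA clusters in the same libraries. The gene with most of these reads was Uqcrc1 up to P7, with 1011, 690, 262 and 111 reads, and Ndufa12 in Adult, with 77.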

How the results depend on the processing

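The OXPHOS share of mRNA clusters at e12.5 (0.538%) was 0.672% in the first list alone, where its interval overlapped that of Adult, and stayed within its interval under the other alternatives run, and the Adult share stayed within its interval under all that applied. The CDS share at e12.5 (81.6%) was 76.4% in the first list alone and otherwise stayed within its interval, as did the Adult one. The log2 ratio of OXPHOS reads in Adult over e12.5 (-0.58) was -0.88 with the first and -0.41 with the second embryonic list, -0.27 with clusters holding a site of at least 7 bases, -0.55 with clusters naming 1 gene, -0.28 scaled to the library totals of the study and 0.21 scaled to mRNA reads. For P7 over e18.5 (-0.42) it was -0.58 with the first list, 0.46 with the second, which held 1823 of 16140 reads, -0.0144 with sites of at least 7 bases, 0.0503 scaled to the library totals of the study (for e18.5 without the total of the second replicate that it names) and 0.14 scaled to mRNA reads. Without the largest member cluster of each library, an alternative chosen after seeing the data, it was -0.53. The direction of the postnatal difference therefore depends on the scaling and on the list, and the cause was not tested. The 8 genes at least 2-fold higher in Adult became 3 of 59 with the first list, 13 of 74 with sites of at least 7 bases and 19 of 79 scaled to mRNA reads, and the 30 lower ones became 34 of 59 with the first list and 19 of 79 scaled to mRNA reads. No paired analysis was possible because each stage has 1 sample. Values near the listing limit of 5 reads, and absence from a table, set the limit of what depth allows here.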
